A study of Branchiostoma lanceolatum with 6 samples.

Results

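Metacells 40 and 45 are 2 clusters of the neural class in a single-cell atlas of the neurula of the Mediterranean amphioxus, *Branchiostoma lanceolatum*. They hold 180 of the 1243 neural cells and of the 14586 cells of the atlas, 37 in metacell 40 and 143 in metacell 45, and were taken by these metacell numbers from the deposited annotation. The cells were thus chosen by measured values, since the metacells were built from the UMI counts of variable genes and picked out by their *Msx*, *Pax3/7* and *Snail* levels. The embryos were wild type, raised at 19 °C to 21 hours post-fertilization (hpf), dissociated and pooled, and live single cells were sorted into plates for MARS-seq, a method in which a random barcode, the unique molecular identifier (UMI), marks every captured mRNA so that molecules rather than reads are counted. The cells were set beside the 1063 other neural cells, which fall into 13 metacells, and beside the 6546 cells of the class epidermis_2. The cell names do not show which of the 2 scRNA-seq samples a cell came from, so all cells count as 1 sample without replicates, and every value is a description with no test of significance.

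The dorsal neural label rests on *Msx*, the *Pax3/7* genes and *Snail*. In chordate embryos the edge of the neural plate, where it meets the epidermis, is patterned by BMP and Wnt signals and expresses homeodomain and zinc-finger factors of the Msx, Pax3/7, Dlx and Zic families. In vertebrates this border gives rise to the dorsal neural tube, the neural crest and the placodes, and Snail factors act as repressors in migrating crest cells. Amphioxus has a neural plate border but no migratory neural crest of the vertebrate kind, and its epidermis closes over the neural plate before the plate rolls up.

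The level of a gene is its number of UMIs in a group per 10,000 UMIs of all genes in that group, with an exact Poisson 95% interval in brackets, and a fold is a ratio of levels with its exact 95% interval. These intervals cover counting error only. Metacells 40 and 45 held 472128 UMIs, with a median of 2383 UMIs per cell, against 2410 in other neural cells and 1246 in epidermis_2. The 2 metacells differed in depth. Metacell 40 had 57353 UMIs and a median of 1537 per cell, against 414775 UMIs and a median of 2751 in metacell 45. They also differed in the plates they came from. Metacell 40 was spread over 22 of the 40 plates with at most 4 cells in a plate, whereas 97 of the 143 cells of metacell 45 (67.8%) lay in 5 plates, 34 of them in 1 plate. Those 5 plates held 0 of the 107 cells of neural metacell 46 and 0 of the 131 cells of metacell 49, but 48 of the 110 cells of metacell 55. Folds within the 9 plates that held at least 5 cells of metacells 40 and 45 are therefore given beside the main folds of a number of genes. These 9 plates held 129 cells of the pair, 124 of them from metacell 45, 245 other neural cells and 1263 of epidermis_2.

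All 4 marker genes stood higher in the pooled cells of metacells 40 and 45 than in other neural cells and in epidermis_2, but metacell 45 carried most of this. These genes name the cells, and the metacells were built from the same counts, so the levels describe the clusters. *Msx* (BLAG03001048), a homeodomain factor, had a level of 2.41 [1.99 to 2.90] in metacells 40 and 45, against 0.347 in other neural cells and 0.467 in epidermis_2. *Pax3/7* BLAG11000799, a paired-box factor, had a level of 4.43 [3.85 to 5.07], against 1.18 in other neural cells and 0.101 in epidermis_2. The other *Pax3/7* gene, BLAG11101295, had a level of 3.47 [2.96 to 4.05], against 1.34 in other neural cells and 0.0533 in epidermis_2. *Snail* (BLAG07001498), a zinc-finger repressor, had a level of 4.36 [3.79 to 5.0], against 1.73 in other neural cells and 0.186 in epidermis_2. *Msx* was thus the marker for which other neural cells and epidermis_2 lay closest together.

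Metacell 45 ranked first of the 15 neural metacells for *Msx* (2.53), *Pax3/7* BLAG11000799 (4.80) and *Snail* (4.63), and second for *Pax3/7* BLAG11101295 (3.81), after metacell 37 with 5.96. Among all 176 metacells it ranked first for *Msx*. Metacell 40 was not set apart by the 4 markers. It held 9 UMIs of *Msx*, 6 of *Pax3/7* BLAG11101295, 10 of *Pax3/7* BLAG11000799 and 14 of *Snail*. Its *Msx* level of 1.57 [0.718 to 2.98] was the third highest of the neural metacells, after 1.70 [0.734 to 3.35] in metacell 43. Its *Pax3/7* BLAG11101295 level of 1.05 [0.384 to 2.28] was rank 12 of 15 and below the pooled level of other neural cells. Its *Pax3/7* BLAG11000799 level was 1.74 [0.836 to 3.21] and its *Snail* level 2.44 [1.33 to 4.10], ranks 3 and 4. The interval of metacell 40 overlapped that of metacell 39 or 43 for each of *Msx* and *Snail*. It also overlapped that of metacell 45, which was 2.07 to 3.06 for *Msx* and 4.00 to 5.33 for *Snail*. For *Msx* its lower limit of 0.718 was above the pooled level of other neural cells, 0.347. The dorsal label thus rests mainly on metacell 45, and on few molecules in metacell 40.

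**Figure D1:**
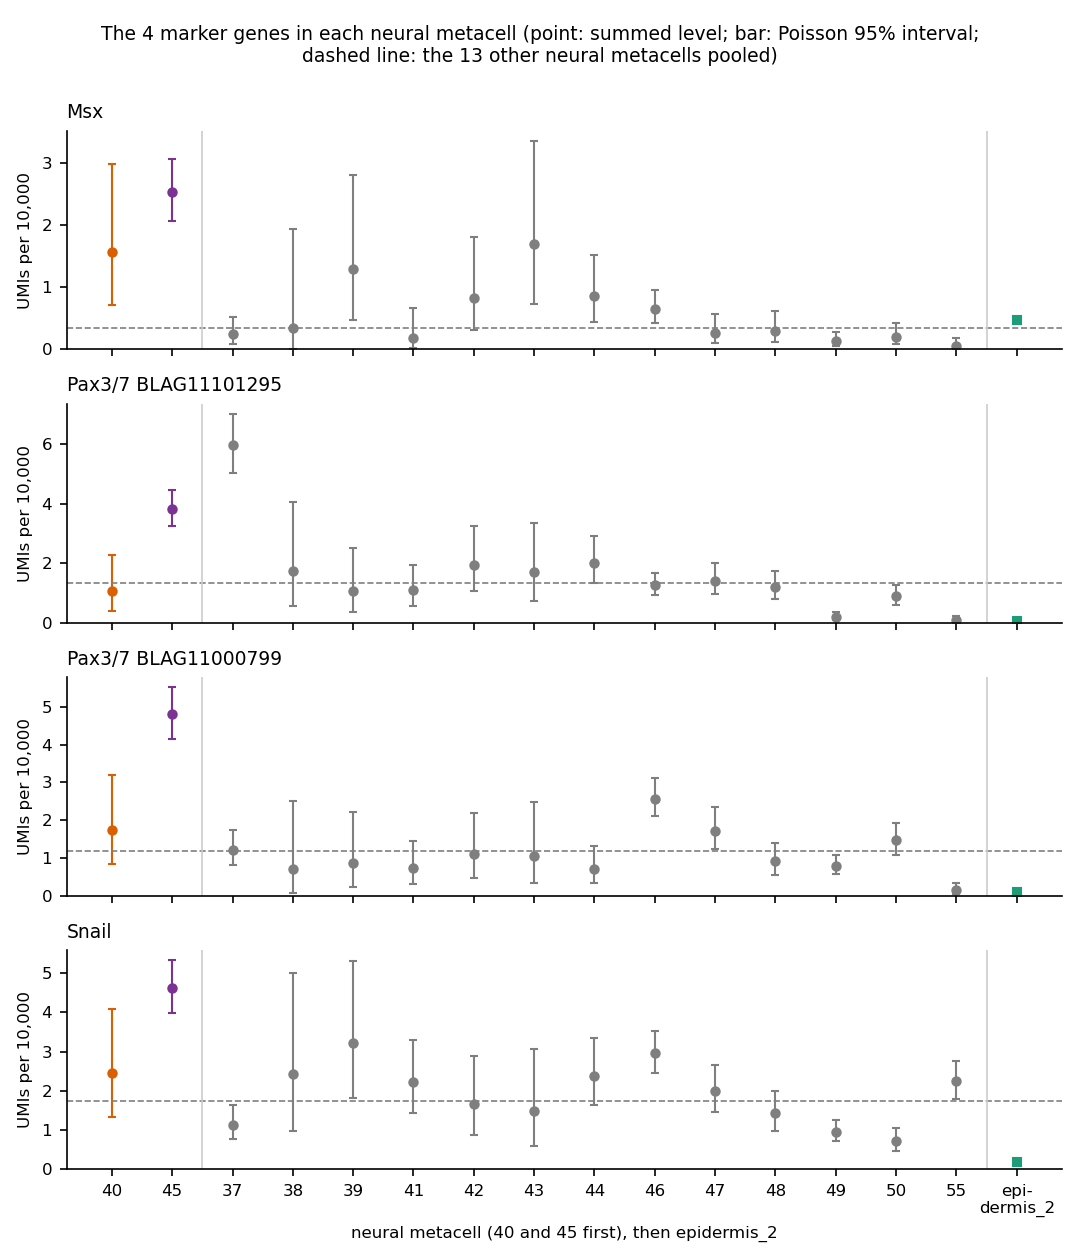
Level of the 4 marker genes (UMIs per 10,000 UMIs, y axis) in metacells 40 and 45, the 13 other neural metacells and epidermis_2 (x axis), with exact Poisson 95% intervals and, dashed, the level of the other neural metacells pooled. Metacell 45 is highest for 3 genes and second to metacell 37 for *Pax3/7* BLAG11101295, while metacell 40 lies among the others.

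Outside the neural class, *Snail* and *Pax3/7* BLAG11000799 were also found in the mesoderm. *Snail* reached 4.61 in the class somite, close to the 4.36 of metacells 40 and 45, and *Pax3/7* BLAG11000799 reached 2.84 in somite and 3.57 in tailbud. *Msx* and *Pax3/7* BLAG11101295 were low there, at 0.0375 and 0.542 in somite. The class DiMes, the di-mesencephalic primordium, also had *Pax3/7* BLAG11000799 at 3.03, *Snail* at 2.75 and *Pax3/7* BLAG11101295 at 1.56, with *Msx* at 0.184. Mesodermal markers were low in metacells 40 and 45. The 9 somite genes summed to a level of 3.9 in metacells 40 and 45, against 5.55 in other neural cells, with *Mrf1*, a myogenic factor, at 0 UMIs and *Foxc*, a forkhead factor of somites, at 1. The 5 notochord genes summed to 0.911, against 1.06, with *Tenascin* at 0 UMIs.

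Counted by cell, the markers were detected in part of the group only. An *Msx* UMI was present in 30.0% of the cells of metacells 40 and 45 (95% interval 23.4 to 37.3), against 5.93% of other neural cells and 5.35% of epidermis_2. For *Msx* epidermis_2 is no clean background, and in muscular_somites, with a median of 2182 UMIs per cell, the share was 2.2%. *Pax3/7* BLAG11101295 was present in 39.4% of cells, against 15.1% of other neural cells and 0.733% of epidermis_2. *Pax3/7* BLAG11000799 was present in 48.9%, against 18.5% and 1.34% in other neural cells and epidermis_2. *Snail* was present in 48.3%, against 24.7% and 2.35%. After each cell was thinned to 500 UMIs, which left out 1 of the 180 cells, 29 other neural cells and 548 of epidermis_2, *Msx* was found in 8.38%, 1.93% and 2.13% of the 3 groups, in the same order. Thinned *Snail* was found in 13.4%, 8.51% and 1.03%. The order of metacells 40 and 45 and other neural cells was kept at equal depth for both genes.

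With all UMIs, cells that combined the markers were more frequent in metacell 45. At least 3 of the 4 markers were found in 52 of the 180 cells of metacells 40 and 45, against 36 of 1063 other neural cells and 0 of 6546 epidermis_2 cells. If 3 cells are taken as the limit of a count of 0, in place of an exact interval, the last share is up to 0.0458%. It concerns detected UMIs, in cells with a median of 1246 UMIs. All but 1 of the 52 cells belonged to metacell 45. In the whole atlas 152 cells had at least 3 markers, 39 of them in somite, and 24 cells had all 4, of which 12 were in metacells 40 and 45. None of the 4 markers was found in 15 of 37 cells of metacell 40 (40.5%) and in 20 of 143 cells of metacell 45 (14.0%). After thinning to 500 UMIs these shares were 69.4% in metacell 40 and 55.2% in metacell 45, closer together than with all UMIs. Both *Pax3/7* genes were found together in 45 of 180 cells, none of them in metacell 40, against 62 of 1063 other neural cells and 0 of epidermis_2. *Msx* and *Snail* were found together in 34 of 180 cells, against 23 of 1063 and 6 of 6546. *Snail* and *Zic*, a zinc-finger factor of the dorsal neural plate, shared 45 of 180 cells, against 54 of 1063 and 7 of 6546.

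**Figure D2:**
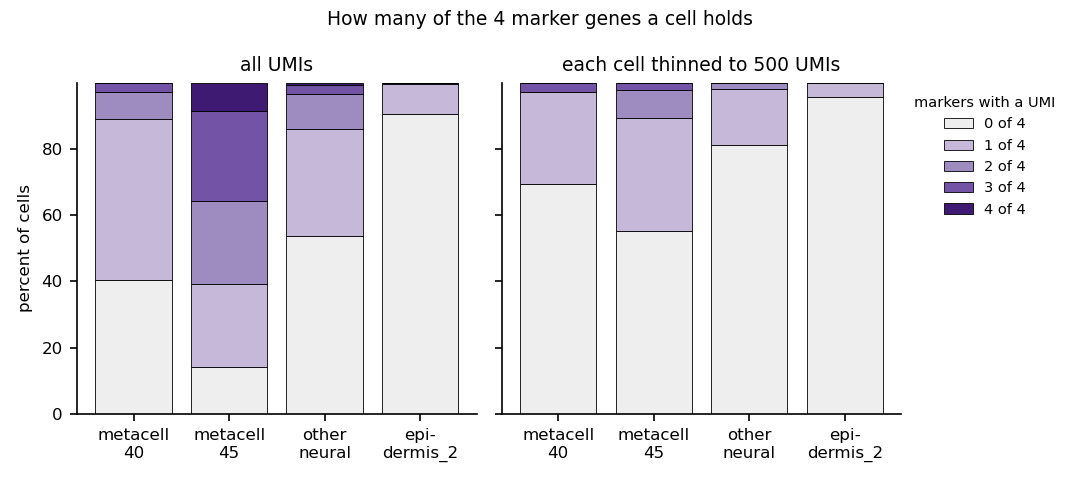
Share of cells (percent, y axis) with a UMI of 0 to 4 of the marker genes in metacell 40, metacell 45, other neural cells and epidermis_2, from all UMIs (left) and with each cell thinned to 500 UMIs (right). With all UMIs 40.5% of metacell 40 and 14.0% of metacell 45 hold none of the 4.

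Set against other neural cells, metacells 40 and 45 had higher levels of border genes, of a BMP antagonist and a Wnt ligand, and lower levels of genes of the floor plate, the last of which depended on the metacells held in the reference. Of 4248 genes whose higher rate would give at least 20 UMIs in the smaller group, 154 (3.63%) were at least 2-fold higher and 216 (5.08%) at least 2-fold lower, 370 (8.71%) in all, and the median fold of all of them was 1.0. The balance of the directions depended on depth and on the minimum, with 39 higher and 13 lower after each cell was thinned to 500 UMIs, and 85 higher and 57 lower with a minimum of 50 UMIs. Of the 8 border genes 7 reached the minimum, and all 7 were at least 2-fold higher, with a median of 3.35. A gene low in both groups could not enter this count, and 4 of the 8 genes are the markers that name the cells. *Msx* was 6.97-fold higher [5.27 to 9.23], *Pax3/7* BLAG11000799 3.75-fold, *Pax3/7* BLAG11101295 2.60-fold and *Snail* 2.52-fold. *Dlx* (BLAG12000563), a homeodomain factor of the non-neural ectoderm, was at 2.46, against 0.711 in other neural cells (3.45-fold [2.72 to 4.37]). *Zic* (BLAG14000728) was at 3.22, against 0.961 (3.35-fold [2.73 to 4.10]). *GBX1* (BLAG12000067), a homeodomain factor that in vertebrates acts in the hindbrain and spinal cord, was at 14.7, against 5.67 (2.59-fold [2.37 to 2.83]). Metacell 45 had the highest *GBX1* level of all 176 metacells, 15.9. *Tfap2*, an AP-2 factor of non-neural ectoderm, stayed below the minimum, with 12 UMIs and a level of 0.254, against 0.214 in other neural cells.

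Within the 9 plates that held most of these cells, some of the border folds were smaller. *Msx* was 5.02-fold and *Dlx* 5.18-fold higher than in other neural cells of the same plates, each in 9 of 9 plates. *Pax3/7* BLAG11000799 was 4.10-fold higher, in 8 of 9 plates, and *Zic* 2.83-fold, in 9 of 9. *Snail* was 1.92-fold higher, in 9 of 9 plates, *Pax3/7* BLAG11101295 1.83-fold, in 6 of 9, and *GBX1* 1.71-fold, in 8 of 9, all 3 below the 2-fold mark. Over plates, *Msx* ran from 0.529 to 6.83 in metacells 40 and 45 (median 2.01), against 0 to 1.82 in other neural cells (median 0.461). The ranges of the groups overlapped, but within each of the 9 plates *Msx* was higher in metacells 40 and 45.

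**Figure D3:**
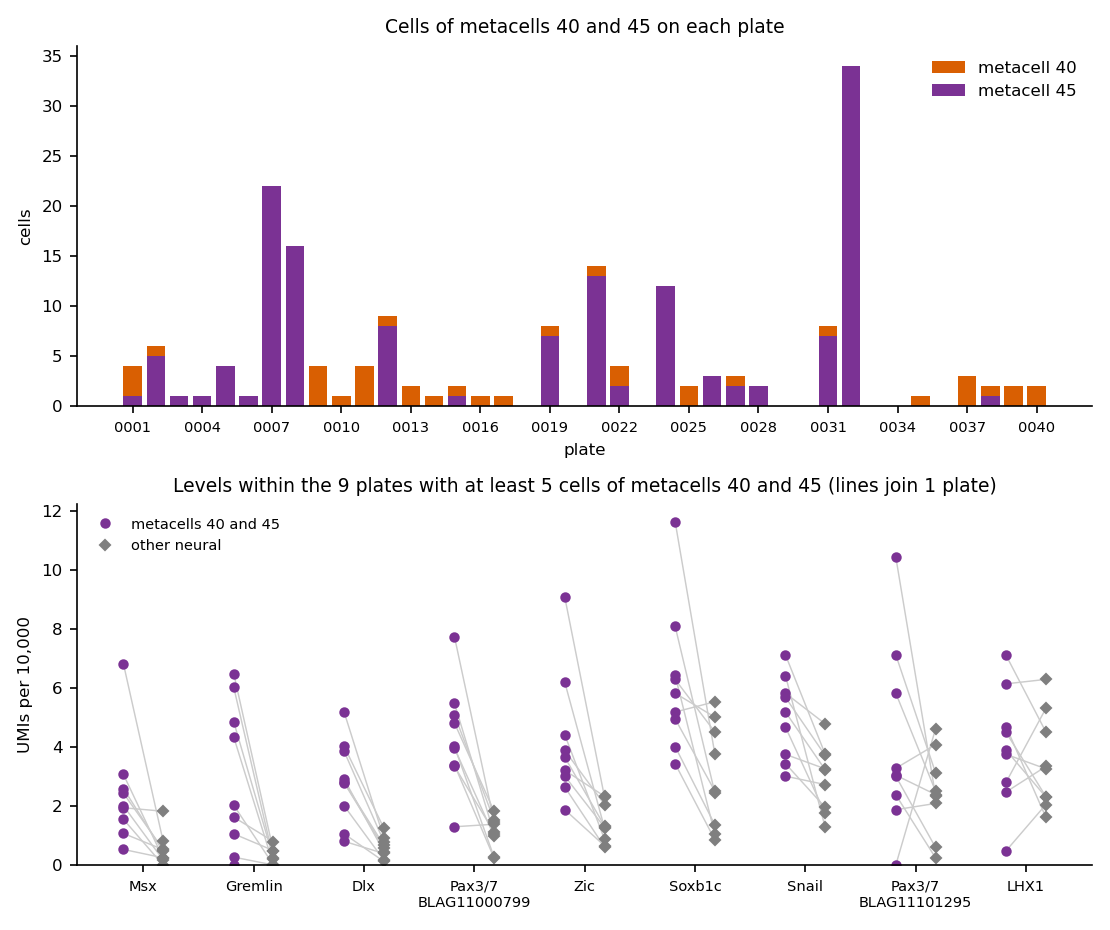
Top, number of cells of metacells 40 and 45 on each of the 40 plates. Bottom, level (UMIs per 10,000 UMIs) of 9 genes in metacells 40 and 45 and in other neural cells of the 9 plates with at least 5 cells of the pair, with lines that join the groups of a plate. *Msx*, *Dlx*, *Zic* and *Snail* are higher in metacells 40 and 45 in 9 of 9 plates.

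Genes of secreted signals were among those furthest from other neural cells. *Gremlin* (BLAG04000087), a secreted BMP antagonist, had the largest fold of the named genes. Its level was 2.08, 0.523 in metacell 40 and 2.29 in metacell 45, against 0.179 in other neural cells (11.6-fold [8.18 to 16.7]), and 12.4-fold within the 9 plates, in 8 of 9. Only 3 of its 98 UMIs came from metacell 40. *Wnt8* (BLAG15000542), a Wnt ligand, was at 1.08, against 0.272 (3.98-fold [2.73 to 5.75]), with 1 of its 51 UMIs in metacell 40, and 2.79-fold within the 9 plates, in 7 of 9. Of the 10 genes of the BMP list 9 were compared, and *Msx* and *Gremlin* were higher and none lower, with a median of 1.38. *Chordin*, another secreted BMP antagonist, was at 1.42, against 2.51 in other neural cells (0.565-fold [0.433 to 0.726]), not past the 2-fold mark, and at 1.78-fold with metacells 37, 44 and 55 left out of the other neural cells. *ID2* and *Vent2*, known targets of BMP signalling, were at 1.58-fold and 1.32-fold. Of the Wnt list 4 of 10 genes were compared and *Wnt8* was the only one past the mark. None of the 6 Notch-list genes compared, of 9, passed it, and their median was 1.08.

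Other named genes with large folds were *Soxf* (BLAG02000861), a SoxF factor, at 0.911, against 0.161 in other neural cells (5.66-fold [3.64 to 8.80]). It is used as an endodermal marker. Within the 9 plates it was 5.18-fold higher, in 6 of 9. Of the other genes of the 5-gene endoderm list, *Pax1/9* had 0 UMIs, *Fabp* 1 and *Plac8-like* 11, whereas *Slc6a7*, a transporter gene, had 97 UMIs and a level of 2.05, against 1.18 in other neural cells (1.74-fold [1.37 to 2.19]). The list summed to 3.22 in metacells 40 and 45, against 1.62 in other neural cells. *ZNF467* (BLAG14000821), a zinc-finger gene, was at 14.3, against 2.46 (5.80-fold [5.21 to 6.46]). *PRDM1* (BLAG01000081), a zinc-finger repressor that in zebrafish acts at the neural plate border, was at 2.58, against 0.604 (4.28-fold [3.36 to 5.43]). *GLIS1* (BLAG13000799), a zinc-finger factor, was at 3.85, against 1.06 (3.64-fold [3.01 to 4.40]). Of a list of genes that act in the vertebrate neural crest, 6 of 8 were compared and *Snail* alone was 2-fold higher, with a median of 1.53. *Zeb*, a zinc-finger repressor, was at 3.03, against 2.79 (1.08-fold), *SOX9* at 0.381, against 0.432, *Myc* at 1.48-fold and *ETS2* at 1.87-fold. *TWIST2* had 4 UMIs.

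General neural genes summed to a higher level than in other neural cells, but their median fold was smaller within the 9 plates. The 13 genes of the neural list summed to 80.0 in metacells 40 and 45 (44.5 in metacell 40 and 84.9 in metacell 45), against 52.2 in other neural cells and 7.83 in epidermis_2. All 13 were compared, 3 were at least 2-fold higher and none lower, and the median was 1.51. Within the 9 plates 2 of the 13, *Soxb1c* and *Neurogenin*, were at least 2-fold higher and 1 at least 2-fold lower, with a median of 1.13. *Soxb1c* (BLAG14000923), a SoxB1 factor of neural progenitors, was at 6.31, against 2.07 (3.05-fold [2.64 to 3.51]), and 2.60-fold within the 9 plates, in 8 of 9. *Neurogenin* (BLAG15000404), a proneural bHLH factor, was at 2.63, against 0.883 (2.98-fold [2.38 to 3.71]), and 2.23-fold within the 9 plates, in 7 of 9. *Tcf15-like* (BLAG10000671), a bHLH gene of the neural plate, was at 11.8, against 5.35 (2.2-fold [1.99 to 2.43]). *Elav*, an RNA-binding protein of neurons, was at 21.1, against 17.6 (1.20-fold), so it differed little between the groups.

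Genes of later neuronal differentiation did not move together. Of 11, 8 were compared, *Olig2* was higher and *Islet* lower, and the median was 1.34. *Olig2* (BLAG01000447), a bHLH factor, was at 0.805, against 0.311 (2.59-fold [1.72 to 3.83]), and 1.52-fold within the 9 plates. *Islet* (BLAG02001562), a LIM homeodomain factor of motor and other neurons, was at 0.0847 with 4 UMIs, against 0.868 (0.0976-fold [0.0264 to 0.253]). *LHX1* and *EBF3*, a LIM homeodomain and a COE-class factor, were at 1.90-fold and 1.87-fold, and at 1.33-fold and 1.56-fold within the 9 plates. *Insm*, a zinc-finger factor of differentiating neurons, was at 0.548-fold. Metacell 37, which has the highest *Elav* level of the neural metacells (56.3), is among the other neural cells and holds the highest levels of *Islet* (5.35) and *Insm* (11.2). With metacells 37, 44 and 55 left out of the other neural cells, *Islet* stayed lower at 0.185-fold, and *Insm* was at 1.12-fold.

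The floor plate genes were low beside other neural cells, which include the metacells richest in them. Of 8, 6 were compared, 3 were at least 2-fold lower and none higher, and the median was 0.339. *Gsc* (BLAG04000892), a homeodomain factor, had 2 UMIs and a level of 0.0424, against 0.783 in other neural cells (0.0541-fold [0.00651 to 0.198]). *Nkx2.1* (BLAG04001574), a homeodomain factor of ventral territories, was at 0.127, against 1.44 (0.0882-fold [0.0322 to 0.194]). *Foxaa* BLAG04001273, a forkhead factor of the axial midline, was at 0.127, against 1.11 (0.114-fold [0.0415 to 0.251]). *Netrin*, a secreted guidance cue of the floor plate, was nevertheless at 5.74, against 7.68 (0.748-fold), and at 0.191 in epidermis_2. Metacell 55 held the highest neural level of all these genes, *Netrin* included (28.0). With metacells 37, 44 and 55 left out of the other neural cells, only *Gsc* of the 6 genes was still at least 2-fold lower (0.232-fold), and the median was 1.12. *Nkx2.1* was then at 0.921-fold, *Foxaa* BLAG04001273 at 0.586-fold, *Netrin* at 1.32-fold and *Chordin* at 1.78-fold. Within the 9 plates, where metacell 55 stayed among the other neural cells, all 6 were at least 2-fold lower, a count with no share of all genes beside it.

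Along the anterior to posterior axis, 3 of the 6 posterior-list genes compared, of 11, were just above the 2-fold mark. Among them were *Hox3* at 1.38, against 0.683 (2.02-fold [1.5 to 2.69]), and *Zf-Ring* at 1.10, against 0.486 (2.27-fold [1.61 to 3.14]). None was lower, and the median was 1.83. Within the plates with at least 5 cells of metacells 40 and 45, the median of the list was 1.14. None of its 5 genes compared there was at least 2-fold higher or lower. With metacells 37, 44 and 55 left out of the other neural cells, 2 of 5 genes were higher, and the median was 1.56. Of the anterior list 5 of 11 genes were compared. *Gremlin* was higher, and *Otx*, a homeodomain factor of the anterior brain, was lower at 0.318, against 0.743 (0.427-fold [0.235 to 0.721]). The calcitonin family peptide *Ctfp1* was lower at 0.233, against 0.750 (0.310-fold [0.153 to 0.567]). In metacell 40 alone *Ctfp1* was above other neural cells, at 1.22 from 7 UMIs (1.63-fold).

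Against epidermis_2 metacells 40 and 45 were neural cells with little keratin, but with *Dlx* and *Foxj1* near the epidermal level. Of 4961 genes compared, 2326 (46.9%) were at least 2-fold higher and 1291 (26.0%) at least 2-fold lower, 3617 (72.9%) in all, and the median fold was 1.85, so most genes differed between these groups. Of the 13 neural genes 12 were higher, with a median of 11.1. *Neurogenin* was 83.8-fold higher [55.8 to 129], *Tcf15-like* 67.5-fold [56.7 to 80.7] and *Soxb1c* 19.1-fold [16.3 to 22.5]. Of the 8 border genes 6 were higher, with *Pax3/7* BLAG11101295 at 65.2-fold [47.3 to 91.1], *Pax3/7* BLAG11000799 at 43.7-fold, *Snail* at 23.5-fold, *Zic* at 11.4-fold, *GBX1* at 6.63-fold and *Msx* at 5.17-fold. Of the neuron list 7 of 8 genes compared were higher, with *Olig2* at 48.1-fold and *LHX1* at 20.4-fold. The remaining 1, whose ID the study's figures print under both *Tlx* and *SLC32A1*, was at 0.255-fold.

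Of the 9 epidermal genes 7 were at least 2-fold lower than in epidermis_2, with a median of 0.0635. The keratins *Krt13* and *Krt75* were at 2.67 and 5.93, against 121.5 and 209.6 in epidermis_2. A *Krt75* UMI was found in 70.0% of cells of metacells 40 and 45, against 73.1% of muscular_somites, a class that should lack keratin and has a median of 2182 UMIs per cell, so this share is at the background. *Tfap2* was at 0.254, against 4.00 (0.0635-fold [0.0328 to 0.111]). *Grhl*, *OVOL1*, *Klf1/2/4* and *Fhl2* were at 0.0317-fold to 0.112-fold. The other 2 genes of the list were not lower. *Dlx* was at 2.46, against 3.58 (0.686-fold [0.565 to 0.826]), and *Foxj1* (BLAG09001148), a forkhead factor of ciliated cells, at 8.96, against 8.75 (1.02-fold [0.926 to 1.13]). *Foxj1* was at 3.28 in other neural cells, and its 2.73-fold difference from them was 1.55-fold within the 9 plates. *Dlx* UMIs were found in 29.4% of cells of metacells 40 and 45, against 11.8% of other neural cells, 29.4% of epidermis_2 and 4.40% of muscular_somites, so *Dlx* was above that background. The classes tailbud_neural and DiMes had it too. *Dlx* was at 2.67 in tailbud_neural and 2.66 in DiMes, and *Foxj1* at 4.26 in tailbud_neural and 8.26 in DiMes, the last with *Krt13* and *Krt75* at 3.03 and 6.70. The combination of *Dlx* and *Foxj1* with little keratin was therefore not particular to metacells 40 and 45.

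*Dlx* occurred in the same cells as neural genes. A UMI of both *Soxb1c* and *Dlx* was found in 33 of 180 cells of metacells 40 and 45 (18.3%), against 47 of 1063 other neural cells (4.42%) and 74 of 6546 epidermis_2 cells (1.13%). After thinning to 500 UMIs the shares were 2.79%, 0.580% and 0.100%. *Soxb1c* and *Foxj1* were found together in 75 cells (41.7%), against 14.7% of other neural cells and 2.43% of epidermis_2. *Soxb1c* and *Tfap2* shared 6 of the 180 cells (3.33%), against 1.41% and 1.31%. Doublets were excluded by scatter at the sorter and not called again.

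**Figure D4:**
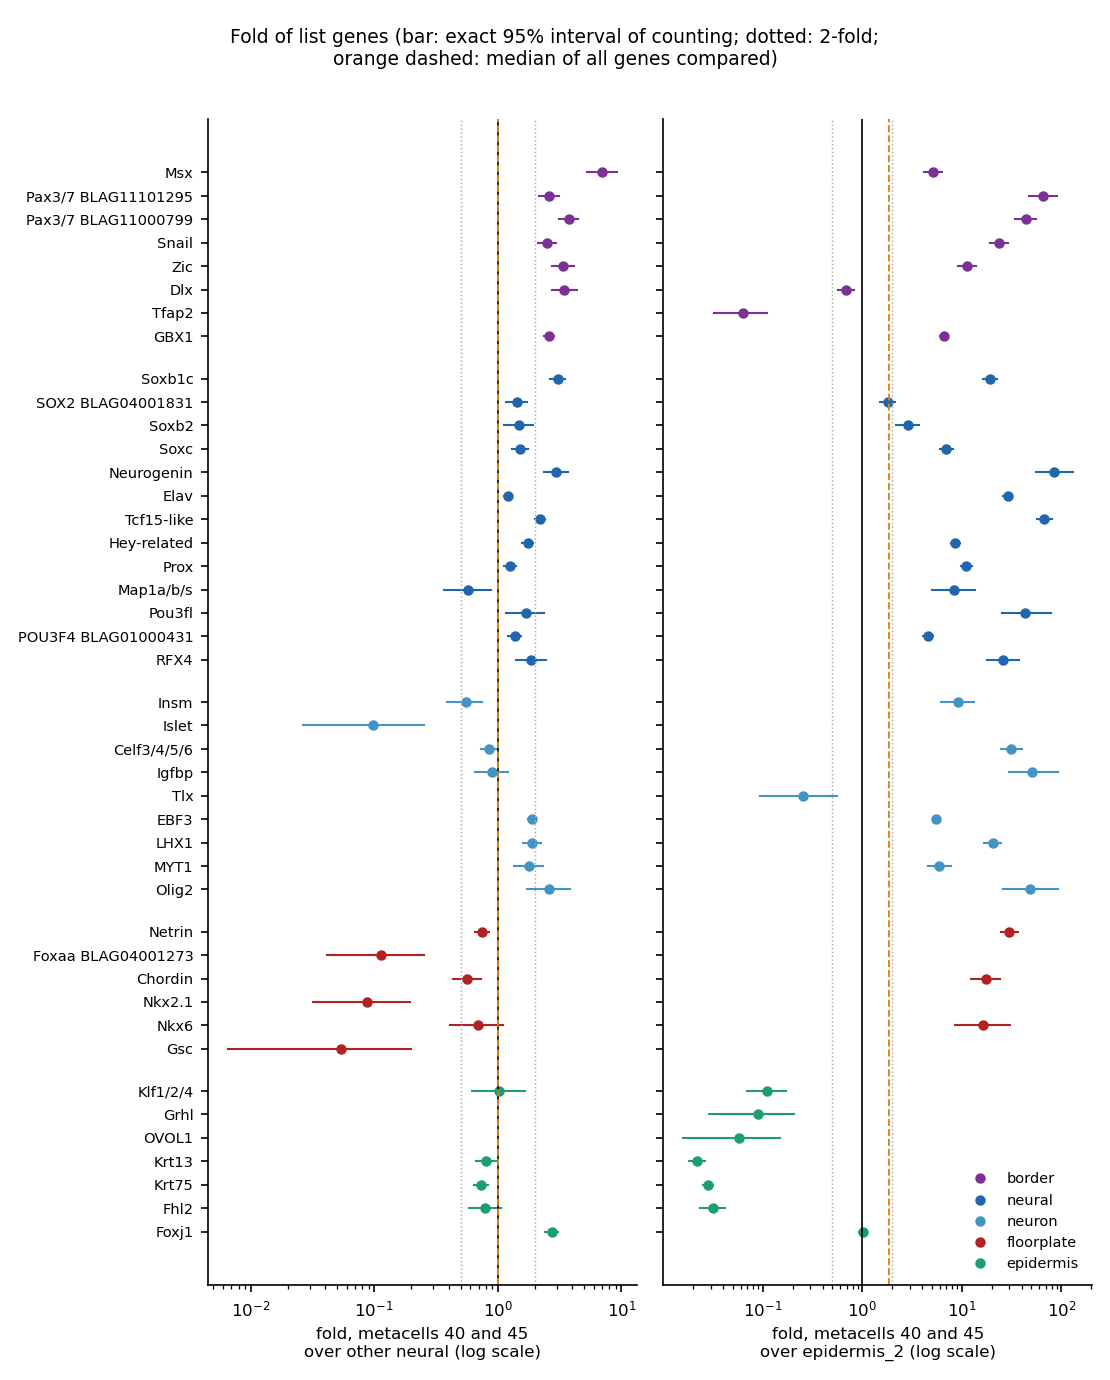
Fold of genes of 5 lists (log scale, x axis) in metacells 40 and 45 over other neural cells (left) and over epidermis_2 (right), with exact 95% intervals, 2-fold marks (dotted) and the median of all genes compared (dashed, 1.0 and 1.85). Border genes lie right of 1 on the left panel, *Gsc*, *Nkx2.1*, *Foxaa* and *Islet* far left of it, and *Dlx* and *Foxj1* are the only epidermal genes near 1 on the right.

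Signalling genes differed from epidermis_2 as well, as did 72.9% of all 4961 genes compared (46.9% higher and 26.0% lower). Of the 10 BMP-list genes 6 were higher and 1 lower, with *Gremlin* at 22.1-fold [16.4 to 29.7], *Chordin* at 17.4-fold [12.4 to 24.4] and *SMAD1*, the effector of BMP receptors, at 3.47-fold. Of 8 Notch-list genes compared 1 was higher, *Hey-related* at 8.61-fold, and 4 were lower, 3 hairy-class *HES1* genes and *HEY1*. *Wnt8* was 8.20-fold and *Wnt4* 6.55-fold higher, and the Wnt target *SP5* was at 0.132-fold. *Wnt1* was at 0.297, against 0.977 in epidermis_2 (0.303-fold), but with the class epidermis_1 as the reference it was at 1.07-fold. *NEUROG2* (BLAG04001360), named after a proneural factor, was at 0.0424, against 1.25, and *REST* (BLAG01000396), a repressor of neuronal genes in vertebrates, was at 0.275, against 7.93 (0.0347-fold [0.0185 to 0.0594]). The 2 comparisons share the cells of metacells 40 and 45. Of the 154 genes higher than in other neural cells, 137 (89.0%) were also at least 2-fold higher than in epidermis_2. Among the 3690 genes within 2-fold of other neural cells, 58.9% were higher than in epidermis_2, 34.4% within 2-fold and 6.72% lower. Of the 154 genes, a further 13 (8.44%) were within 2-fold of epidermis_2, *PRDM1*, *Dlx*, *Foxj1*, *DBF4* and *EGR1* among them, and 4 (2.60%), *SP9* among them, were at least 2-fold lower than in epidermis_2.

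Metacell 40 had lower levels than metacell 45 of several border, neural and neuronal genes. Because metacell 40 is small, only 635 genes could be compared, of which 39 (6.14%) were at least 2-fold higher and 98 (15.4%) at least 2-fold lower in metacell 40, 137 (21.6%) in all, with a median fold of 0.917. After each cell was thinned to 500 UMIs, only 157 genes could be compared, and 11 were higher and 11 lower. The excess of lower genes was thus not seen among these 157. The thinned folds of single genes and lists below have no minimum of UMIs and rest on few UMIs. No share over all genes without a minimum stands beside them. *LHX1* had 2 UMIs and a level of 0.349 in metacell 40, against 195 UMIs and 4.70 in metacell 45 (0.0742-fold [0.00892 to 0.272]), the lowest level of the 15 neural metacells. *MEIS2*, a homeodomain factor that acts with Hox proteins, was at 1.22, against 3.66 (0.333-fold [0.132 to 0.703]). *EBF3* was at 7.15, against 24.4 (0.292-fold [0.209 to 0.400]). *Netrin* was at 1.57, against 6.32 (0.248-fold [0.112 to 0.479]), and at 0.177-fold after thinning. Of 4 border genes compared 3 were lower, both *Pax3/7* genes (0.275-fold and 0.363-fold) and *GBX1* (0.362-fold). *Snail* was at 0.527-fold [0.283 to 0.907]. After thinning, *GBX1* (0.302-fold) and *Pax3/7* BLAG11000799 (0.248-fold) stayed past the mark, whereas *Pax3/7* BLAG11101295 was at 0.636-fold and *Snail* at 0.993-fold. Of 7 neural genes 3 were lower, with *Elav* at 8.37, against 22.8 (0.367-fold [0.268 to 0.490]), and none was higher. After thinning, and with no minimum of UMIs, 5 of the 7 were at least 2-fold lower and none higher, with a median of 0.429. All 3 neuron-list genes compared were lower. After thinning to 500 UMIs 2 of the 3 stayed at least 2-fold lower, whereas *Celf3/4/5/6* was at 0.474-fold with all UMIs and at 1.04-fold after thinning.

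Few named genes were higher in metacell 40. They were *NCL* (BLAG11000427), named after the nucleolar protein nucleolin, at 4.53, against 1.40 in metacell 45 (3.24-fold [1.96 to 5.23]), *Krt13* at 5.75, against 2.24 (2.57-fold [1.67 to 3.85]), and *ELK1*, an Ets factor, at 13.1, against 6.39 (2.05-fold [1.56 to 2.65]). *Krt75* was at 7.67, against 5.69 (1.35-fold [0.954 to 1.87]). Keratin levels of 5.75 and 7.67 lie far below the 121.5 and 209.6 of epidermis_2. Some genes with too few UMIs for this comparison had higher levels in metacell 40. *Cdx*, a homeodomain factor of the posterior, was at 2.62 from 15 UMIs, against 0.482 in metacell 45 (5.42-fold [2.58 to 11.1]). The gene named *CDX4* (BLAG08000847), which had enough UMIs, went the other way, at 4.36, against 13.4 (0.325-fold [0.209 to 0.485]). *TBX2* BLAG01001316, a T-box factor, was at 2.09 from 12 UMIs, against 0.675 (3.10-fold [1.44 to 6.29]). In contrast, *Dlx* was at 2.27 in metacell 40, against 2.48 in metacell 45, a fold of 0.913 [0.470 to 1.63]. The depth and the plates of the 2 metacells differ too, and their part in these differences was not tested.

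**Figure D5:**
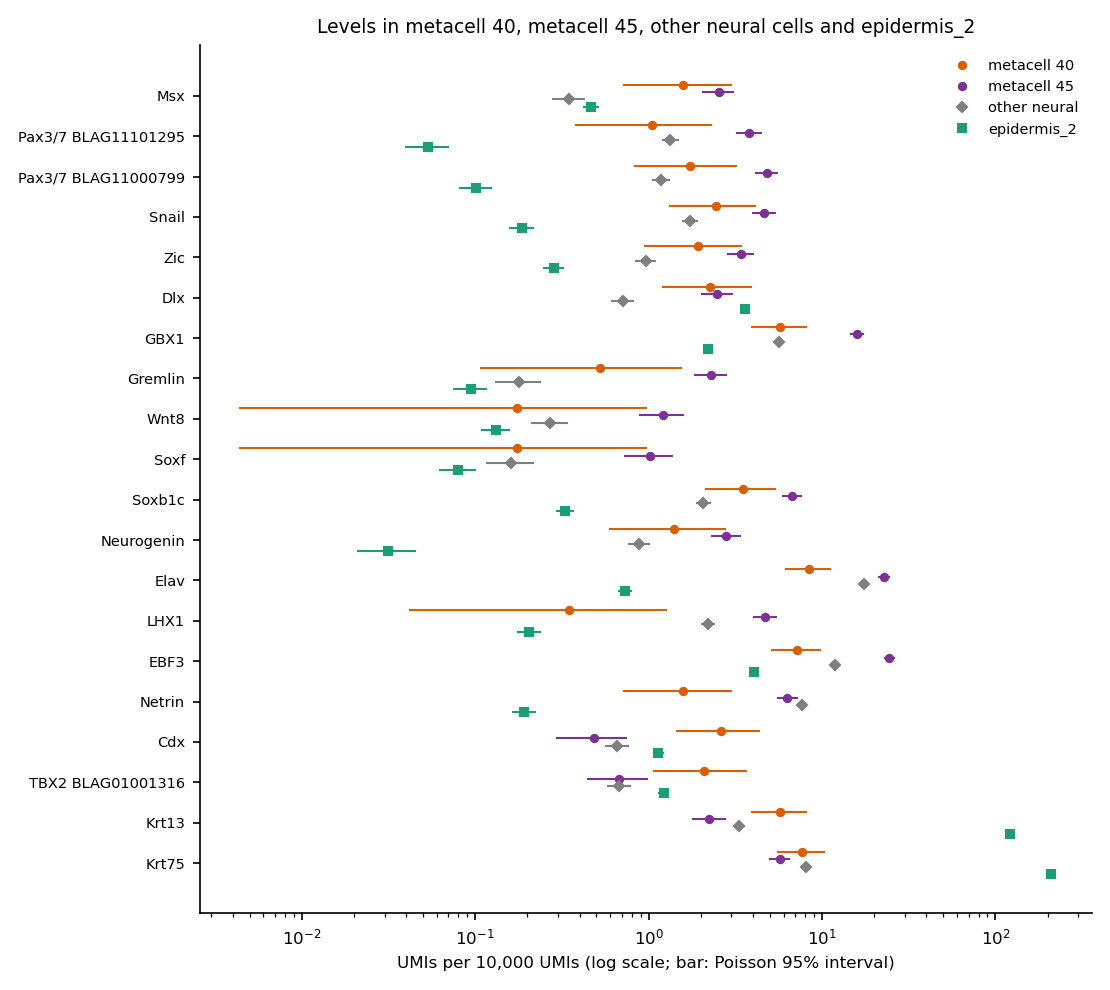
Levels of 20 genes (UMIs per 10,000 UMIs, log scale, x axis) in metacell 40, metacell 45, other neural cells and epidermis_2, with exact Poisson 95% intervals. *LHX1* is at 0.349 in metacell 40 and 4.70 in metacell 45, and both metacells have keratin levels far below epidermis_2. *Cdx* is higher in metacell 40, whereas *CDX4*, not shown, is lower there.

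The profiles of the 2 metacells were not each other's nearest. Over the 14447 genes that reached 50 UMIs across all cells, the profile of metacell 40 was closest to neural metacell 47 (Spearman correlation 0.724 across genes), with metacell 45 at rank 4 (0.722). Metacell 45 was closest to metacell 51 of the class tailbud_neural (0.870), and metacell 40 was rank 31 for metacell 45. These correlations increase with depth. With every metacell thinned to the 57353 UMIs of metacell 40, which left out 28 metacells, metacell 45 stayed at rank 4 for metacell 40 (0.675), and metacell 40 was rank 19 for metacell 45. The closest metacell to metacell 45 was then neural metacell 47 (0.734), which was also the closest to metacell 40 (0.686), and metacell 51 was at rank 3 (0.727). The closest epidermis_2 metacell was 175, at 0.559 and rank 63 for metacell 40 with all UMIs. Genes are not independent replicates, and these values are descriptions.

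Cells within metacells 40 and 45 also differed by *Msx*. The 54 cells with an *Msx* UMI had a median of 2738 UMIs, against 2167 in the 126 cells without one, so deeper cells were more often in the first group. Per 10,000 UMIs, *Snail* was at 6.67 in cells with *Msx*, against 3.22 in cells without (2.07-fold [1.56 to 2.75]), and *Zic* at 5.13, against 2.28 (2.26-fold). *Hox3* was at 2.12, against 1.01 (2.09-fold), and *Dlx* at 3.47, against 1.96 (1.77-fold). Of the 54 cells with *Msx*, 6 came from metacell 40. Some genes of other territories were lower with *Msx*, whereas *Chordin* of the floor plate list (0.992-fold) and the keratin *Krt13* (1.17-fold) were not. *Nkx6*, a homeodomain factor of the ventral neural tube in vertebrates, had 0 UMIs in cells with *Msx*, against 20 UMIs in cells without. *Netrin* was at 3.79, against 6.70 (0.565-fold), *Pax4/6* at 0.385, against 0.980 (0.393-fold), and *Mnx*, a homeodomain factor of motor neurons, had 1 UMI, against 20. The UMIs of *Nkx6* and of *Mnx* each came from only 9 of the 180 cells. No gene of the neural list was 2-fold higher in cells with *Msx*. The largest folds were those of *Prox* (1.51-fold [1.22 to 1.88]), *Soxb1c* (1.41-fold [1.11 to 1.78]), *Soxc* (1.40-fold [1.06 to 1.83]) and *Hey-related* (1.39-fold [1.16 to 1.66]). *Neurogenin* was at 0.897-fold, *Elav* at 1.12-fold and *Map1a/b/s*, with 4 UMIs in cells with *Msx*, at 0.406-fold [0.101 to 1.21]. These intervals cover counting error only, and no share over all genes stands beside these folds. The border gene *GBX1* was at 1.08-fold.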

How the data were processed

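Live single cells of pooled embryos were profiled by MARS-seq. The authors mapped the reads to the *B. lanceolatum* genome, assigned them to exonic intervals, filtered UMIs for sequencing and amplification errors, and deposited UMI counts (not normalized) of 27073 genes in 14586 cells. They also deposited an annotation of 176 metacell numbers and 17 cell types, and a table of their own fold changes per metacell (a ratio of a regularized geometric mean to its median over metacells), which was not used here. Cell names give a plate and a well, not a sample. Doublets were excluded by scatter at the sorter, and no caller was run. The 4 ATAC-seq samples were not analysed here.

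UMI counts were summed per group and divided by the group's total. A gene was compared if its higher rate, applied to the total of the smaller group, amounted to 20 UMIs or more, and called at a fold of 2. A group at 0 UMIs was set to 3 UMIs over the group, and the fold is then a bound. Shares have exact Clopper-Pearson intervals, levels exact Poisson intervals and folds exact conditional intervals, all of 95%. The members and gene lists were chosen with earlier results of these data known. Genes named are the 4 markers, the list genes and, per comparison, the 10 named genes of largest fold in each direction, of which those that add to the text are printed. Some genes counted in the lists are not reported here by name. Names in capitals come from the study's figures and tables (525 IDs named). Alternatives covered the minimum, the fold, thinning, the mean over cells, lower-numbered and higher-numbered plates, deep cells, single metacells, plates and references. Restriction to plates with at least 5 cells, and the likeness at equal UMIs, were added after the data were seen. The statistics were tested on simulated data. Python 3.11.15, numpy 2.4.6, scipy 1.17.1 and pandas 2.3.3 were used.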

Additional observations from a re-analysis of the deposited data

How the results depend on the processing

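No paired analysis was possible because the cells carry no sample or replicate number. Without replicates no spread between embryos is known, metacell 40 holds few UMIs, and only 5 of its cells lie in the 9 plates that hold most cells of metacell 45, so the 2 metacells were not compared within plates. Over other neural cells, 154 genes were higher and 216 lower. These counts became 261 and 442 with a minimum of 10 UMIs, 85 and 57 with 50, 452 and 553 at 1.5-fold, 33 and 79 at 3-fold, 39 and 13 after thinning to 500 UMIs, and 29 and 38 for metacell 40 alone, and 57 were lower in the lower-numbered plates. Over epidermis_2 (2326 and 1291) they became 1205 and 660 with a minimum of 50, 641 and 330 after thinning, 1252 and 635 in the lower-numbered plates, 323 and 200 for metacell 40 alone, and 1443 were higher at 3-fold. For metacell 40 over metacell 45 (39 and 98) they became 141 and 226 with a minimum of 10, 12 and 23 with 50, 97 and 178 at 1.5-fold, 15 and 41 at 3-fold, 11 and 11 after thinning, 19 and 41 in the lower-numbered plates, and 23 and 48 in the higher-numbered plates. Smaller pools leave fewer genes above the minimum.

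The level of *Msx* became 1.94 in the lower-numbered plates. Thinning gave 3.80 for *Pax3/7* BLAG11000799 and 3.35 for *Snail*. Metacell 40 alone gave 1.57 for *Msx*, 1.05 for *Pax3/7* BLAG11101295, 1.74 for *Pax3/7* BLAG11000799 and 2.44 for *Snail*. Of 2036 folds of single genes under an alternative, 1402 moved by less than their counting interval, 626 by more and 8 changed direction. A change of direction was counted only for folds past the 2-fold mark in the main setting. Smaller folds that crossed 1, such as those of *Chordin*, *Insm* and *Netrin*, are not among the 8. With metacell 40 alone over other neural cells, the folds counted as changed in direction were *Ctfp1* (1.63), *Pax3/7* BLAG11101295 (0.783) and *Wnt8* (0.642), and within the 9 plates *EGR1* (0.951). Over epidermis_2 *Fgfrl* was at 0.830 in the lower-numbered plates and 0.593 against epidermis_1, where *Wnt1* was at 1.07. For metacell 40 over metacell 45, thinned *Celf3/4/5/6* was at 1.04. The cause was not tested.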

Other observations

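Immediate-early genes, whose transcripts accumulate within minutes of stress or growth signals, were looked at after their values were seen. *EGR1*, a zinc-finger factor, was at 34.6 in metacells 40 and 45, against 16.8 in other neural cells and 20.1 in epidermis_2. Its level of 47.6 in metacell 40 was the highest of the 176 metacells, and metacell 45 was at 32.8. Within the 9 plates with at least 5 cells of metacells 40 and 45, *EGR1* was at 33.7, against 35.4 in other neural cells of those plates (0.951-fold). *JUN* was at 37.1, against 24.6 in other neural cells, and at 0.980-fold within the 9 plates. *FOS* and *ATF3* were lower, at 0.169 and 2.88, against 1.15 and 7.50 in other neural cells, and stayed at 0.167-fold and 0.483-fold within the 9 plates.

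Some of the largest differences were in genes that the sources used here do not name. BLAG01000446 had 33 UMIs in metacells 40 and 45, against 7 in other neural cells (27.9-fold [12.2 to 74.8]), and BLAG02001860 had a level of 10.7, against 1.5 (7.11-fold [6.24 to 8.11]). Between the metacells, BLAG03002016 was at 211 in metacell 40, against 36.5 in metacell 45 (5.78-fold [5.35 to 6.23]), and BLAG19000214 had 1 UMI in metacell 40, against 466 in metacell 45 (0.0155-fold [0.000392 to 0.0869]).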
